A study of Arabidopsis thaliana with 4 samples.

Results

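Cytochrome P450 genes were examined in Arabidopsis thaliana shoots that overexpress bHLH122, a transcription factor of the bHLH family, and in wild-type shoots. Members were the nuclear genes that have a probe set of their own in the platform annotation and a symbol made of CYP, a family number, a subfamily letter and a gene number, with the brightest probe set standing for a gene. This gave 22 genes out of 13217 nuclear genes with a named probe set, and each had 1 probe set. Of them 18 belong to the CYP71B subfamily, and CYP51G2, CYP78A9, CYP79A2 and CYP84A4 stand for a family each. Of the 22746 probe sets tested, 8730 carry no gene name in the annotation used. P450 genes outside the 22 may therefore still have a probe set on the array. The TAIR10.1 gene table lists 225 P450 genes by such symbols, 35 of them CYP71B, and the other 203 are not analysed here. Among those are the ABA hydroxylase genes of the CYP707A subfamily. The signal of bHLH122 itself was not examined, so the transgene gives no check of the labels here.

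The overexpressor group (2 arrays) held shoots of bHLH122 overexpression plants in the Col-0 background, and the wild-type group (2 arrays) held Col-0 shoots labelled as wild type with no treatment. In both groups seeds were stratified for 96 h, and shoots were harvested after 1 week on MS medium followed by 2 weeks in soil. The source labels call the overexpressor arrays independent lines, whereas both titles name line 18, so whether 1 or more insertion lines were sampled is not settled, and the promoter of the transgene is not given in the sources used here. Whether the 2 wild-type arrays stand for separately grown plants is not stated either, and the p-values given below reflect array-to-array spread that may be technical.

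P450 enzymes are haem-thiolate monooxygenases. Most plant P450s are anchored in the endoplasmic reticulum, take electrons from NADPH through a P450 reductase and add oxygen to hormones, sterols, fatty acids, phenylpropanoids and defence compounds. Plant families are numbered by sequence likeness. CYP71 is a large family with many genes of plant defence chemistry, and its CYP71B genes often sit side by side in the Arabidopsis genome. For most CYP71B genes described here no role is given, because none is known with certainty.

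Of the 22 genes 4 rose and 3 fell in the overexpressors, and 15 did not pass the test (limma, Benjamini-Hochberg adjusted p under 0.05 over all 22746 probe sets tested). Over all probe sets 24.0% passed, 12.2% higher and 11.8% lower. Among nuclear probe sets with 1 gene, from which the members were taken, 2860 of 13367 passed, 1336 higher and 1524 lower. Nothing particular to P450 genes is read from the count. All 7 calls were moderate in size. No P450 gene changed 2-fold with the groups apart, which 3.41% of all probe sets did. The fall nearest to that size was in CYP84A4, at a log2 fold change of -0.94. The median log2 fold change of the 22 genes was 0.034, against -0.016 over all probe sets, and the values ran from -0.94 to 0.56.

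Many of the genes gave a signal near the floor of the array. Of the 22 genes 11 had a mean signal above the median of all probe sets (log2 5.32), and 8 lay at or under the lower quartile (log2 3.50). All 7 calls fell among the 11 brighter genes, where 36.6% of all probe sets passed, 17.8% higher and 18.8% lower. None of the 11 dimmer genes passed in limma, and none had an unadjusted p under 0.05, while 11.4% of all probe sets below the median passed. In these bulk samples fewer cells of a type and less RNA per cell cannot be told apart.

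**Figure D1:**
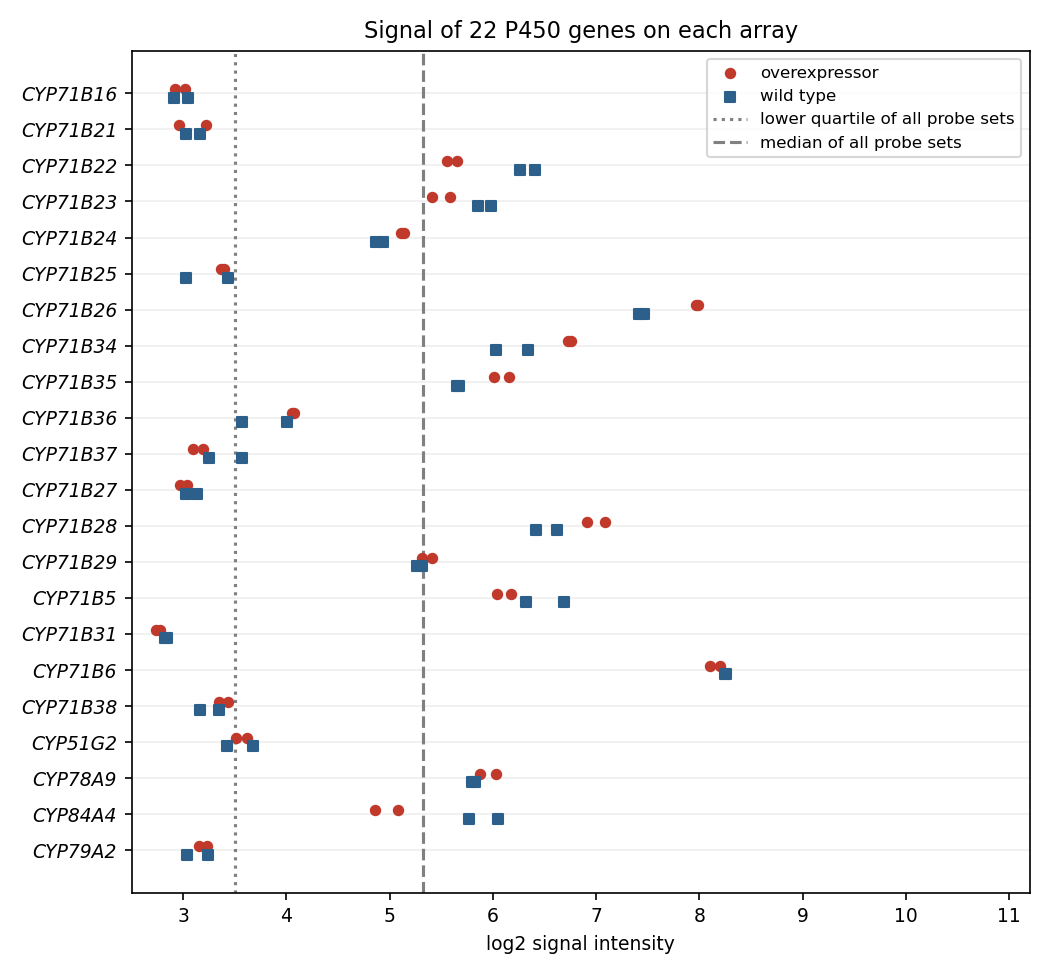
Log2 signal intensity of the 22 P450 genes on each of the 4 arrays, with CYP71B genes by position and other families at the bottom. Circles are overexpressor arrays and squares wild-type arrays, the dotted line is the lower quartile and the dashed line the median of mean signal over all probe sets. In CYP71B26, CYP71B28, CYP71B34 and CYP71B35 both circles lie right of both squares, and in CYP71B22, CYP71B23 and CYP84A4 both lie left of them.

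Outside CYP71B 1 of 4 genes passed, beside 24.0% of all probe sets. CYP84A4 (AT5G04330) encodes a relative of ferulate 5-hydroxylase that hydroxylates p-coumaraldehyde on the way to arabidopyrones, compounds derived from the phenylpropanoid pathway. Its log2 signal was 5.08 and 4.85 on the overexpressor arrays, against 5.77 and 6.05 on the wild-type arrays. Both overexpressor values lie well under both wild-type values. The mean was 4.97 ± 0.16 for the overexpressor arrays and 5.91 ± 0.20 for the wild-type arrays (SD, 2 arrays a group). CYP84A4 thus fell by 0.94 as a log2 fold change (SE 0.14, adjusted p = 0.00623 in limma), a signal 1.92-fold lower than in wild type. The call held with any 1 array left out, at log2 fold changes from -1.08 to -0.80.

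CYP78A9 (AT3G61880), whose overexpression is known to enlarge fruits and seeds, did not pass. Its log2 signal was 5.88 and 6.03 in overexpressors, against 5.83 and 5.79 in wild type, a log2 fold change of 0.14 with a 95% interval from -0.11 to 0.39. It ran from 0.067 to 0.22 with 1 array left out and was 0.23 with the length trend removed, without a call. The groups do not overlap, but the gap is smaller than the distance between the overexpressor arrays. CYP79A2 (AT5G05260) makes the aldoxime precursor of benzylglucosinolate from phenylalanine. Its signal was near the floor on every array, 3.15 and 3.23 in overexpressors and 3.24 and 3.03 in wild type, and the groups overlapped. CYP51G2 (AT2G17330), annotated in TAIR10.1 as a transcribed pseudogene related to the sterol demethylase family, was likewise dim. It had 3.51 and 3.62 in overexpressors and 3.42 and 3.67 in wild type, with the wild-type values on either side of both overexpressor values.

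Within CYP71B 4 of 18 genes rose and 2 fell, beside 12.2% higher and 11.8% lower over all probe sets, and nothing particular to the subfamily is read from these counts. The median log2 fold change was 0.035, with values on each side of 0 for 9 genes apiece. Families cannot be ranked from these data, since the other 4 have 1 measured gene each. The CYP71B genes are described in the order of the TAIR10.1 gene table, and no test compared chromosomal neighbourhoods.

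The stretch of chromosome 3 from CYP71B16 (AT3G26150) to CYP71B37 (AT3G26330) holds 25 genes, 18 of them P450 genes, of which 11 were measured. Here 3 genes rose, 2 fell and 6 did not pass. Of the 11 genes 5 lie above the median signal, and these are the 5 that passed, beside 36.6% of all probe sets above it. With so few genes no positional pattern is read from the count. The falls were in the neighbouring genes CYP71B22 and CYP71B23, and the rises in CYP71B26, CYP71B34 and CYP71B35, which follow further along. CYP71B3, CYP71B24, CYP71B25 and CYP71B4 lie between the falling and the rising genes, with 6 genes of other kinds. CYP71B24 and CYP71B25 did not pass, and CYP71B3 and CYP71B4 are not analysed here.

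CYP71B22 (AT3G26200) had log2 signals of 5.66 and 5.56 on the overexpressor arrays, against 6.26 and 6.41 on the wild-type arrays. The gap between the groups is several times the distance between arrays of a group. It fell by 0.73 (SE 0.11, limma adjusted p = 0.00582), a signal 1.66-fold lower than in wild type. The fall passed with any 1 array left out, at log2 fold changes from -0.80 to -0.66.

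CYP71B23 (AT3G26210), the next gene in the table, had 5.58 and 5.41 in overexpressors, against 5.98 and 5.85 in wild type. All overexpressor values are lower, by a narrower gap than in CYP71B22. It fell by 0.42 (SE 0.11, limma adjusted p = 0.0391). This call was lost whenever any 1 array was left out, at log2 fold changes from -0.51 to -0.33.

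CYP71B26 (AT3G26290) had 7.97 and 7.99 in overexpressors, against 7.46 and 7.41 in wild type. Arrays of a group were nearly equal and the groups clearly apart. It rose by 0.54 (SE 0.09, limma adjusted p = 0.0105), a 1.45-fold higher signal, and was the 1 rise that passed with any array left out (0.51 to 0.56).

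CYP71B34 (AT3G26300) had 6.76 and 6.73 in overexpressors, against 6.03 and 6.34 in wild type. The overexpressor arrays were close to each other, while the wild-type arrays were 0.31 apart. It rose by 0.56 (SE 0.13, limma adjusted p = 0.0247), a 1.47-fold higher signal. The call was lost without overexpressor replicate 1, overexpressor replicate 2 or wild-type replicate 1, and the log2 fold change ran from 0.41 to 0.71 with 1 array left out.

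CYP71B35 (AT3G26310), which follows CYP71B34, had 6.01 and 6.15 in overexpressors, against 5.66 and 5.67 in wild type. The groups are apart and the wild-type arrays nearly equal. It rose by 0.42 (SE 0.10, limma adjusted p = 0.0307), and the call was lost with any 1 array left out (0.34 to 0.49).

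The last 2 members of the stretch did not pass. CYP71B36 had log2 signals of 4.08 and 4.06 in overexpressors, against 3.57 and 4.01 in wild type, a log2 fold change of 0.28 (95% interval -0.10 to 0.65). Its wild-type arrays were further apart, by 0.44, than those of any other member. Both overexpressor values were higher than both wild-type values, and leaving out wild-type replicate 1 gave a log2 fold change of 0.057, and leaving out the other wild-type array gave 0.50, with no call in either case. CYP71B37 had 3.19 and 3.09 in overexpressors, against 3.57 and 3.25 in wild type, a log2 fold change of -0.26 (95% interval -0.58 to 0.06). All overexpressor values were lower, near the floor, and the log2 fold change ran from -0.42 to -0.10 with 1 array left out.

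CYP71B24, which sits between the falling and the rising genes, had 5.14 and 5.11 in overexpressors, against 4.93 and 4.86 in wild type. The groups were apart, and the log2 fold change of 0.23 did not pass (SE 0.10, limma adjusted p = 0.144). CYP71B25 was dim, at 3.39 and 3.36 in overexpressors and 3.02 and 3.43 in wild type, with overlapping groups. CYP71B16 and CYP71B21 at the start of the stretch had log2 fold changes of -0.011 and -0.0046, with all 8 values between 2.91 and 3.22 and the groups overlapping.

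**Figure D2:**
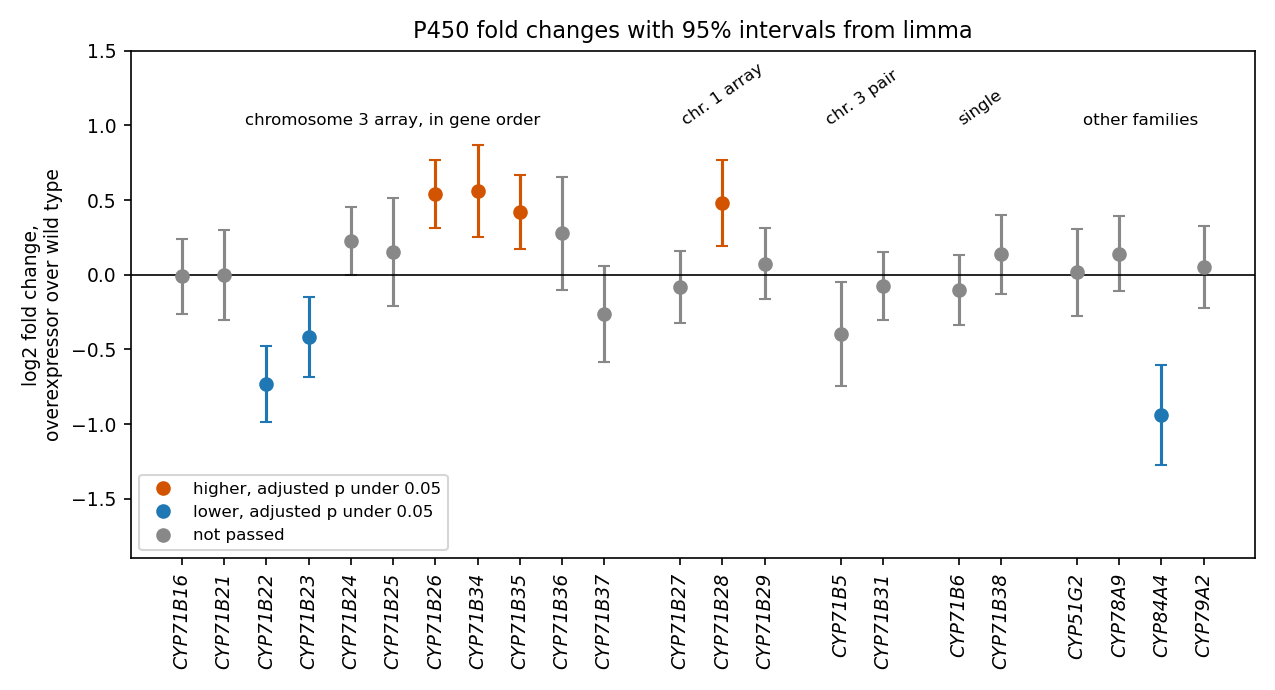
Log2 fold change of overexpressor over wild type for the 22 P450 genes (vertical axis), with 95% intervals from limma, the chromosome 3 stretch in gene order on the left and other positions to the right. Orange genes were higher and blue genes lower at an adjusted p under 0.05, and grey genes did not pass. In the chromosome 3 stretch CYP71B22 (-0.73) and CYP71B23 (-0.42) precede CYP71B26 (0.54), CYP71B34 (0.56) and CYP71B35 (0.42).

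A second row of P450 genes lies on chromosome 1 and runs from CYP71B27 (AT1G13070) to CYP71B7 with 6 genes, 5 of them P450 genes and 3 measured. CYP71B28 (AT1G13090) had log2 signals of 7.08 and 6.91 in overexpressors, against 6.62 and 6.42 in wild type. Both overexpressor arrays were higher, with a gap somewhat wider than the distance between arrays of a group. It rose by 0.48 (SE 0.12, limma adjusted p = 0.0320), a 1.40-fold higher signal. The call was lost without overexpressor replicate 1 (0.40) and without wild-type replicate 2 (0.38).

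Its neighbour CYP71B29 (AT1G13100) had 5.31 and 5.41 in overexpressors, against 5.26 and 5.31 in wild type, a log2 fold change of 0.07 (95% interval -0.16 to 0.31). The groups nearly touch. CYP71B27, annotated as a transcribed pseudogene, had 2.97 and 3.03 in overexpressors and 3.14 and 3.03 in wild type, at the floor and overlapping. Neither other measured gene of this row had a call beside CYP71B28, and CYP71B27 lies too near the floor for its lack of a call to tell much.

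The remaining CYP71B genes gave no call. CYP71B5 (AT3G53280) had 6.04 and 6.18 in overexpressors, against 6.33 and 6.69 in wild type. Both overexpressor values were lower, but the wild-type arrays were 0.36 apart, and the log2 fold change of -0.40 (SE 0.14) had limma adjusted p = 0.0997. It passed without wild-type replicate 1 (-0.58) and where probe sets below the median signal were left out of the test. It was -0.21 without wild-type replicate 2 and -0.27 with the length trend removed, with no call in either case. CYP71B31 (AT3G53300), which lies near CYP71B5 and is known to oxidise linalool in flowers, had 2.73 and 2.78 in overexpressors, against 2.84 and 2.82 in wild type, at the floor of the arrays. CYP71B30P, which lies between them and whose symbol ends in a letter and so falls outside the rule, was chosen for mention after its values were seen and had a log2 fold change of -0.12 with no call.

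CYP71B6 (AT2G24180), which converts indole-3-acetonitrile to indole-3-carboxylic acid in defence chemistry, had 8.10 and 8.20 in overexpressors, against 8.25 and 8.26 in wild type. The values lie close together, with a log2 fold change of -0.10 (95% interval -0.34 to 0.13). CYP71B38 (AT3G44250) had 3.44 and 3.35 in overexpressors and 3.35 and 3.16 in wild type, a log2 fold change of 0.14, near the floor.

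**Figure D3:**
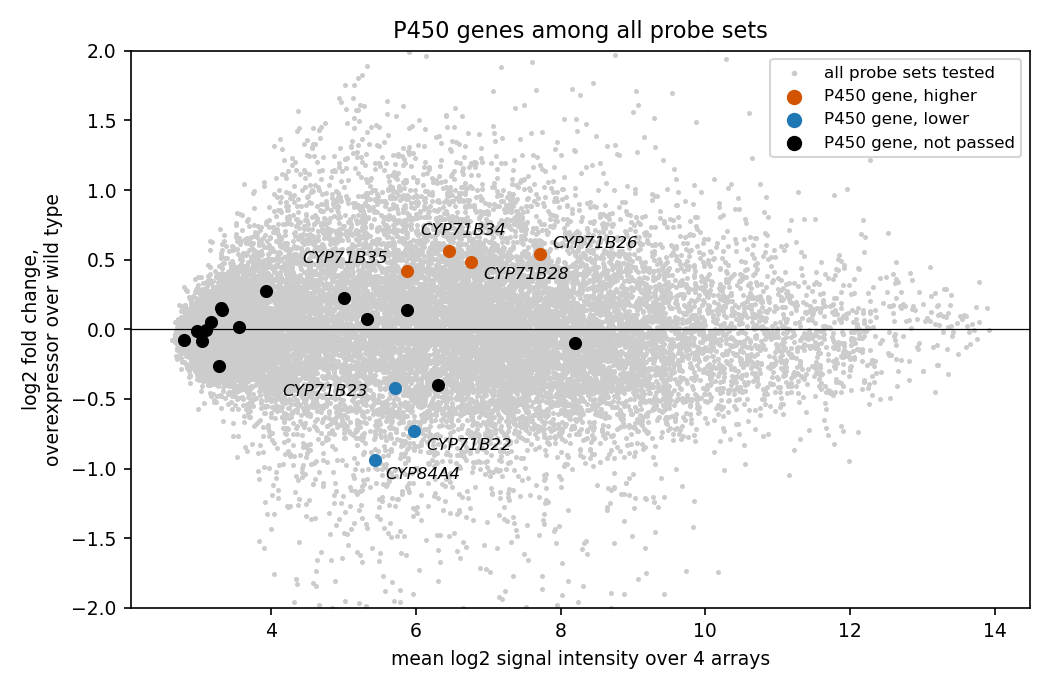
Log2 fold change of overexpressor over wild type (vertical axis) against mean log2 signal intensity over the 4 arrays for all probe sets (grey) and the 22 P450 genes (coloured). The vertical axis ends at 2 in either direction, and 100 probe sets lie beyond it. The called P450 genes lie in the middle of the signal range and inside the cloud of all probe sets.

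Over the 22 genes the groups did not overlap for 16, 9 of them higher and 7 lower in overexpressors, beside 61.2% of all probe sets (29.1% higher and 32.1% lower). The overexpressor arrays differed by a median of 0.096 on the log2 scale across the members, and the wild-type arrays by 0.14. All 22 probe sets carry the plain suffix of probes designed for 1 transcript. Neighbouring CYP71B genes are sequence relatives, and cross-hybridisation between them was not tested.

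Genes that work beside P450 enzymes were taken from lists of 142 genes, of which 10 were matched to a probe set by the listed symbol. Of these 3 rose and 1 fell, beside 24.0% of all probe sets called. Of the 3 phenylpropanoid and flavonoid genes measured, HCT, which makes the shikimate ester substrates of lignin synthesis, rose by 0.50. Its log2 signal was 9.86 and 9.88 in overexpressors and 9.35 and 9.40 in wild type (SE 0.09, limma adjusted p = 0.0140), and the call was lost without overexpressor replicate 1 (0.51), overexpressor replicate 2 (0.49) or wild-type replicate 1 (0.47). DFR, the dihydroflavonol reductase of anthocyanin synthesis, rose by 0.81 and passed with any 1 array left out, and CCR2, a cinnamoyl-CoA reductase, stood at -0.24 without passing.

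In the glucosinolate and camalexin list 1 of 4 measured genes passed, beside 24.0% of all probe sets, so nothing about the list is read from this count. UGT74B1, the glucosyltransferase that follows the P450 steps, rose by 0.38, a call lost with any 1 array left out (0.33 to 0.43). BCAT4 (-0.32) and AOP3 (0.20), which act on the side chain, and GSTU20 (0.15) did not pass, though GSTU20 passed at 0.42 with the length trend removed (limma adjusted p = 0.0404). Of the gibberellin receptors, GID1A fell by 0.47, at 7.54 and 7.44 in overexpressors against 8.01 and 7.92 in wild type (SE 0.10, limma adjusted p = 0.0192), and this call too was lost with any 1 array left out (-0.52 to -0.43). GID1B (-0.41) and GID1C (-0.33) had values in the same direction and did not pass. None of the listed P450 reductase, cutin, wax or jasmonate genes was matched to a probe set by its listed symbol, and these are not analysed here. Synonyms were not searched, so probe sets named otherwise may exist.

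Some other measures moved with the groups. The summed signal of 4 of 10 leaf photosynthesis markers was 40898 and 38016 in overexpressors, against 30882 and 31297 in wild type. RCA, the largest part of the sum on every array, PRK and SBPASE rose. LHCB4.1 did not pass (log2 fold change 0.11). All 4 are bright, and 17.8% of all probe sets above the median signal passed as higher. The 2 measured root markers summed to 340 and 293 in overexpressors, against 273 and 267 in wild type, and neither passed. Nearly all of that sum was PYK10 (log2 fold change 0.24), while EXPA7 lay near the floor (-0.088). The flower marker AMS and the meristem marker CLV3 stayed at log2 3.03 to 3.47 on every array. The poly-A control transcripts, which are spiked in ahead of labelling, read lower in overexpressors on all 24 of their probe sets (median log2 difference -0.59). The 24 are repeated probe sets for the dap, lys, phe and thr transcripts and are not independent readings. The part of these controls in the P450 values was not tested.

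In these arrays log2 fold change rises with gene length over nuclear probe sets (r = 0.33 across 13367 probe sets, which are not independent replicates). The P450 genes span a narrow range of 1600 to 2578 bp with introns, and across the 22 genes r was -0.11. With the length trend removed the same number passed, 4 higher and 3 lower. This fit held only the nuclear probe sets with 1 gene, so its adjustment covers fewer probe sets than the main test. CYP71B28 then had a log2 fold change of 0.66, CYP71B34 of 0.68, CYP71B26 of 0.64 and CYP71B35 of 0.57. CYP84A4 was at -0.80, CYP71B22 at -0.60 and CYP71B23 at -0.44, and all 7 still passed.

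**Figure D4:**
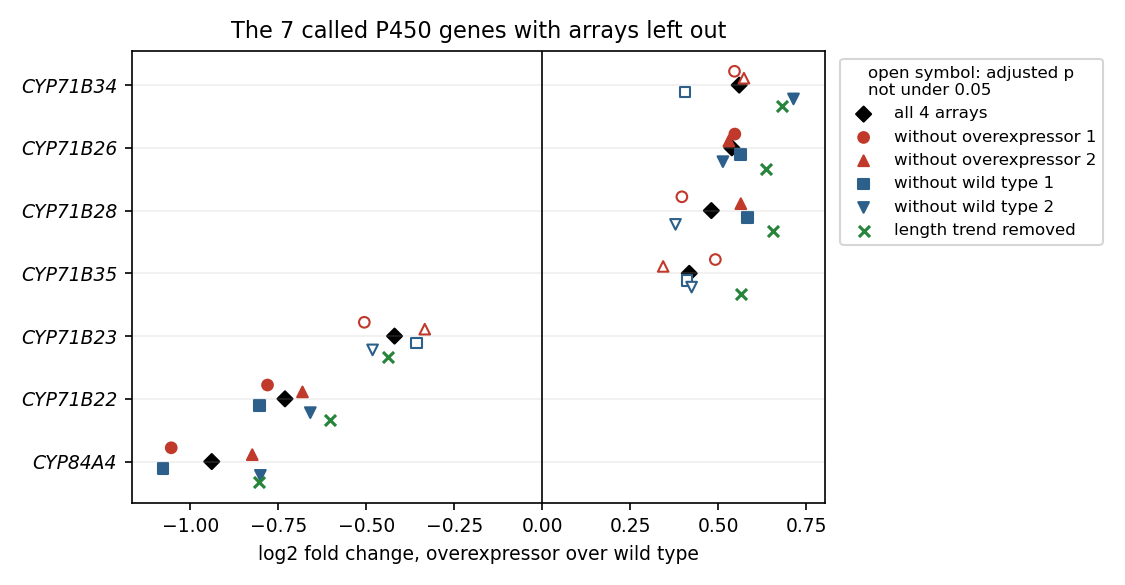
Log2 fold change of overexpressor over wild type (horizontal axis) for the 7 called P450 genes with all 4 arrays, with each array left out, and with the length trend removed. Filled symbols and crosses passed at an adjusted p under 0.05 and open symbols did not. CYP84A4, CYP71B22 and CYP71B26 passed with any 1 array left out, and no gene crossed 0.

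With 2 arrays against 2, an exact permutation of the arrays cannot give a two-sided p below 0.333, so the calls rest on limma's variance sharing across probe sets. With ordinary t statistics none of the 22 genes passed the adjusted threshold, and 5 had an unadjusted p under 0.05, against 8 in limma.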

How the data were processed

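Each probe set has 1 deposited signal intensity per array, linear in scale. Per the submitters' processing notes the tool was RMA; version and back-transformation from log scale: not given in the sources used here. Values were converted to log2 and compared by limma 3.58.1 (R 4.3.3; lmFit, eBayes, 2 residual and 4.24 prior degrees of freedom), with Benjamini-Hochberg adjustment over 22746 probe sets, 64 controls left out. Array medians of signal were 40.8 and 40.2 (overexpressor) and 39.2 and 40.0 (wild type). Precision is limited by having 4 arrays.

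Gene names came from the platform annotation, with symbols checked by Entrez ID against TAIR10.1; 2 probe sets that name a P450 gene together with other genes were left out. The members and lists were chosen with earlier results of these data known. The rule for names took members changed 2-fold past the threshold (none), the brightest, highest and lowest changed member of a family with 3 or more, measured list members, and at most 4 partner genes per list by smallest p; the other members are named because all 22 are described. The limma code was tested on simulated data. Alternatives covered normalization, signal filters, variance moderation, each array left out, replicate number as a block, thresholds, probe set and symbol choice, and removal of the length trend (lowess in 4 signal bins).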

Additional observations from a re-analysis of the deposited data

How the results depend on the processing

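The 4 higher and 3 lower calls kept their numbers under quantile normalization, median centring, an intensity trend with robust moderation, other choices of probe set or symbol, removal of the length trend and, chosen after seeing the data, nuclear probe sets only. At an adjusted p under 0.01 the higher count was 0 and the lower count 2, and with ordinary statistics both counts were 0. Without the lowest quartile of signal 4 genes were higher and 3 lower. Without probe sets below the median signal the counts were 4 and 4. When an array was dropped, a group's lone array borrows its spread from the rest, and some calls were lost. The cause of the lost calls was not tested. With the replicate block 2 genes were higher and 2 lower, without the calls of CYP71B34 (adjusted p = 0.0562), CYP71B23 (0.0565) and CYP71B35 (0.0629); the shared numbers gave no sign of pairing (correlation of deviations -0.041). At least 2-fold lower with the groups apart were 0 to 1 genes when an array was dropped (CYP84A4 without overexpressor replicate 1 or wild-type replicate 1) and 2 at a 1.5-fold minimum. The median log2 fold change was 0.11 without the lowest quartile of signal, which leaves 14 genes, and -0.042 to 0.094 when an array was dropped. Among single-gene values 310 kept both sign and call status, 28 lost a call, 2 gained one and 15 turned sign, in 6 genes with no call; the cause was not tested. When an array was dropped CYP51G2 ran from -0.11 to 0.14, CYP71B16 from -0.082 to 0.059, CYP71B21 from -0.13 to 0.12, CYP71B25 from -0.053 to 0.36 and CYP79A2 from -0.053 to 0.16. CYP51G2 was -0.018 with median centring and -0.017 with the length trend removed. CYP71B16 and CYP71B21 were 0.018 and 0.017 after quantile normalization and 0.011 and 0.017 with the trend removed, where CYP71B6 was 0.025. No detection calls were used, so the distance from background is not known for the 11 dimmer genes.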
